A study of Homo sapiens with 10 samples.

Results

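The genes described here encode proteins that remove introns from pre-mRNA. They are the 46 genes of the expression table whose symbols begin with SRSF, SF3, U2AF, SNRP, PRPF or HNRNP, out of 6914 genes in the table with an intact name. By prefix they fall into 7 SR protein genes, 10 SF3 and U2AF genes, 8 SNRP genes, 10 PRPF genes and 11 hnRNP genes. All 46 passed the filter on low values, as did 6782 genes of the table. The choice rests on symbols and not on any measured value.

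All 10 samples came from HCT116, a human colorectal cancer cell line, and every sample's label gives cycloheximide, which arrests elongating ribosomes, at 100 ug/ml for 3 min. The knocked-down gene, by short hairpin RNA, was YTHDF1, which encodes a cytoplasmic reader of N6-methyladenosine (m6A), a methyl mark on mRNA. Ribosome profiling and mRNA-seq each had 2 knockdown libraries, called knockdown 1 and knockdown 2, and 1 control library whose hairpin targets GFP per the file headers. Control cells also gave 1 RNA immunoprecipitation with a YTHDF1 antibody (RIP), 1 RNA library from whole cell lysate as its input, and 2 m6A-seq replicates. The titles number the knockdown hairpin shY1-1 and shY1-2, while the genotype field reads shY1 for both, so it is not known whether 1 hairpin or a pair was used. They also do not say whether the libraries came from separate cultures, and p-values therefore measure the spread between these libraries, which may be technical.

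Splicing is carried out by the spliceosome, which is assembled from small nuclear ribonucleoproteins (snRNPs) and many accessory proteins. The U1 snRNP marks the start of an intron, U2AF and the SF3 complexes of the U2 snRNP mark its branch site and end, and the PRPF proteins carry the assembly through activation and catalysis. SR proteins mostly promote the use of nearby exons, while hnRNP proteins package RNA and often oppose it, and many genes of both families limit their own output through unproductive splicing.

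YTHDF1 itself had 17.0 and 19.9 in knockdown 1 and 2 footprints, against 61.4 in the control, and its mRNA value was 8.62 and 7.81 in the knockdown libraries against 27.4 in the control. In both assays the targeted gene was lower in each knockdown library. Of 7 epithelial markers 6 were in the table, and their summed mRNA value was 5499 and 3403 in knockdown 1 and 2 against 3920 in the control. The 3 of 7 fibroblast markers in the table summed to 7.13 and 6.35 in the knockdown libraries and 7.505 in the control. CD68, the 1 blood cell marker of 7 in the table, had 4.98 and 19.9 in the knockdown libraries and 19.9 in the control. The expression values are a relative abundance whose unit the headers do not name, so read depth is unknown. Over all genes the median footprint change, on the log2(value + 1) scale used throughout, was -0.19 in knockdown 1 and -0.34 in knockdown 2, and the median mRNA change was -0.04 and 0.02. Changes of the splicing factors are therefore also given relative to these medians. Splicing factors were also more abundant, with a median control mRNA value of 109.4 against 12.03 for all genes. Comparisons with all genes were not matched for abundance. Whether abundance accounts for any difference from all genes was not tested.

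Knockdown 1 stood apart from knockdown 2 in these genes. The mRNA value was lower in knockdown 1 than in knockdown 2 for 39 of the 46 splicing factors (84.8%), and for 55.3% of all genes. Footprints were lower in knockdown 1 for 32 of 46 (69.6%), against 42.3% of all genes. HNRNPU, which encodes a nuclear scaffold protein, had mRNA values of 96.2 in knockdown 1, 178 in knockdown 2 and 186 in the control. SF3B2, a U2 snRNP subunit, had 69.3 in knockdown 1, 139 in knockdown 2 and 131 in the control. In both genes the second knockdown library lay close to the control and the first lay below it. Changes are given by library where the libraries differ in what they show. In these bulk samples fewer cells of a kind and less RNA per cell cannot be told apart.

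The ratio of footprints to mRNA, log2((footprint + 1)/(mRNA + 1)), is called translation efficiency here. In the absence of named units it ranks genes within a library and gives no absolute rate. Splicing factors lay somewhat above the middle of this ranking. Their median was 1.11 in knockdown 1, 0.92 in knockdown 2 and 1.36 in the control, and the median of all genes was 0.90, 0.71 and 1.08 in the same order of libraries. In the control 29 of 46 splicing factors (63.0%) lay above the all-gene median, which 50.0% of genes exceed. The order of members was similar in all libraries, with a Spearman correlation to the control of 0.885 in knockdown 1 and 0.911 in knockdown 2 over the 46 genes. Over all genes it was 0.772 and 0.834. These correlations describe libraries that share the genes and their lengths.

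The classes differed in where they lay. SNRP genes had the highest class median, 1.91 in knockdown 1, 1.89 in knockdown 2 and 2.29 in the control, where it corresponded to percentile 81.0 of all genes. SR protein genes followed at 1.72, 1.73 and 1.81, percentile 70.6 in the control. In both classes most genes lay above the all-gene median of the control. Medians of hnRNP genes were 1.23, 0.91 and 1.44, those of SF3 and U2AF genes 0.82, 0.87 and 1.23, and those of PRPF genes 0.69, 0.48 and 1.17. The last 3 classes lay between percentiles 52.3 and 60.1 in the control. No class was uniform, and with 1 control library the order of classes has no test.

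**Figure D1:**
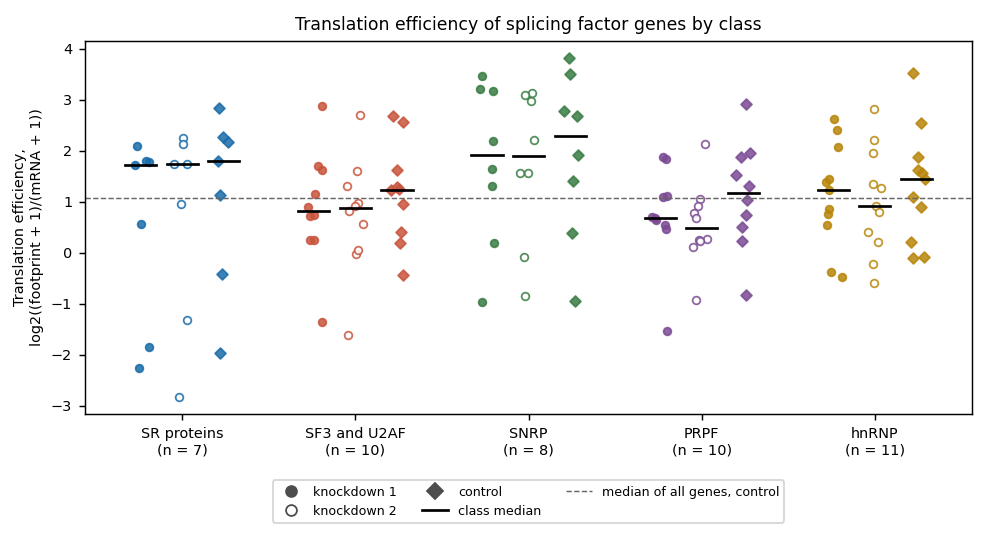
Translation efficiency of each splicing factor gene as log2((footprint + 1)/(mRNA + 1)) on the vertical axis, by class, with 1 point per gene in knockdown 1, knockdown 2 and the control. SNRP genes reach the highest value, 3.83 for SNRPF in the control, and every class spans more than the distance between class medians.

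Within the Sm proteins, which form the ring around snRNAs, efficiency was spread widely. SNRPF had efficiencies of 3.17 in knockdown 1, 3.09 in knockdown 2 and 3.83 in the control, percentile 98.2. SNRPD2 had 3.22, 3.14 and 3.51, percentile 96.8 in the control. SNRPD1 had 3.46, 2.98 and 2.78, and SNRPG had 0.19, -0.08 and 0.38, percentile 30.7 in the control. These 4 genes encode subunits of 1 ring, and their efficiencies in the control spanned more than 3 log2 units. SNRPA1, which encodes a protein of the U2 snRNP outside the ring, was the lowest of its class at -0.96 in knockdown 1, -0.85 in knockdown 2 and -0.95 in the control.

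Low efficiency was also found in other classes. SRSF6, an SR protein, had -1.85 in knockdown 1, -1.32 in knockdown 2 and -0.41 in the control. PRPF31, which holds the U4/U6 and U5 snRNPs together, had -1.54, -0.93 and -0.83. HNRNPC, which binds uridine tracts, had -0.48, -0.60 and -0.11, percentile 20.5 in the control. All 3 lay below the all-gene median in every library. At the upper end outside the SNRP class stood PRPF39, a U1-associated protein, with 1.88, 2.14 and 2.92, and SRSF7, an SR protein that also serves mRNA export, with 2.10, 2.14 and 2.83. Both PRPF39 and SRSF7 were lower in each knockdown library than in the control.

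Members with close copies elsewhere in the genome are uncertain, because reads that match several genes cannot be assigned, and how the authors counted them was not stated. HNRNPA1L2, a retrocopy of HNRNPA1, had footprints of 17.4 and 17.9 in knockdown 1 and 2 and 32.1 in the control, but mRNA values of 1.97, 1.67 and 1.87. Its efficiency in the control was 3.53, and reads of HNRNPA1 in either value cannot be told apart from its own. SRSF8, a retrocopy of another SR gene, had the lowest efficiency of the 46 at -2.27 in knockdown 1, -2.84 in knockdown 2 and -1.97 in the control. U2AF1L5, a near-identical copy of U2AF1, was listed at 0 and 0.286 in knockdown footprints and 1.74 in the control.

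After knockdown, footprints of splicing factors were mostly below the control. Both knockdown libraries were below the control in 31 of 46 genes (67.4%), as in 51.2% of all genes tested, and both were above it in 1 gene, PRPF19 (2.17%), against 17.5% of all genes. The median footprint change was -0.46 in knockdown 1 and -0.34 in knockdown 2. Relative to the library medians these were -0.27 and 0.00, so the excess over all genes came from knockdown 1. Both libraries lay below the library medians in 18 splicing factors (39.1%) and above them in 8 (17.4%), where 32.5% of all genes lay on each side. These shares of all genes were not matched to the higher mRNA abundance of the splicing factors.

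In limma none of the 46 genes passed an adjusted p of 0.05, and 2 of all genes (0.0295%) did. The smallest adjusted p of a splicing factor was 0.552. At an unadjusted p under 0.05 there were 6 splicing factors, all lower (13.0%), against 8.85% of all genes, 6.99% lower and 1.86% higher. They were SRSF6, SF3B1, SNRPF, PRPF40B, HNRNPA3 and HNRNPF, with at least 1 gene from each class. With the libraries centred on their medians or quantile normalised, none of the 6 remained under 0.05. A p above the threshold does not show that a gene was unchanged.

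**Figure D2:**
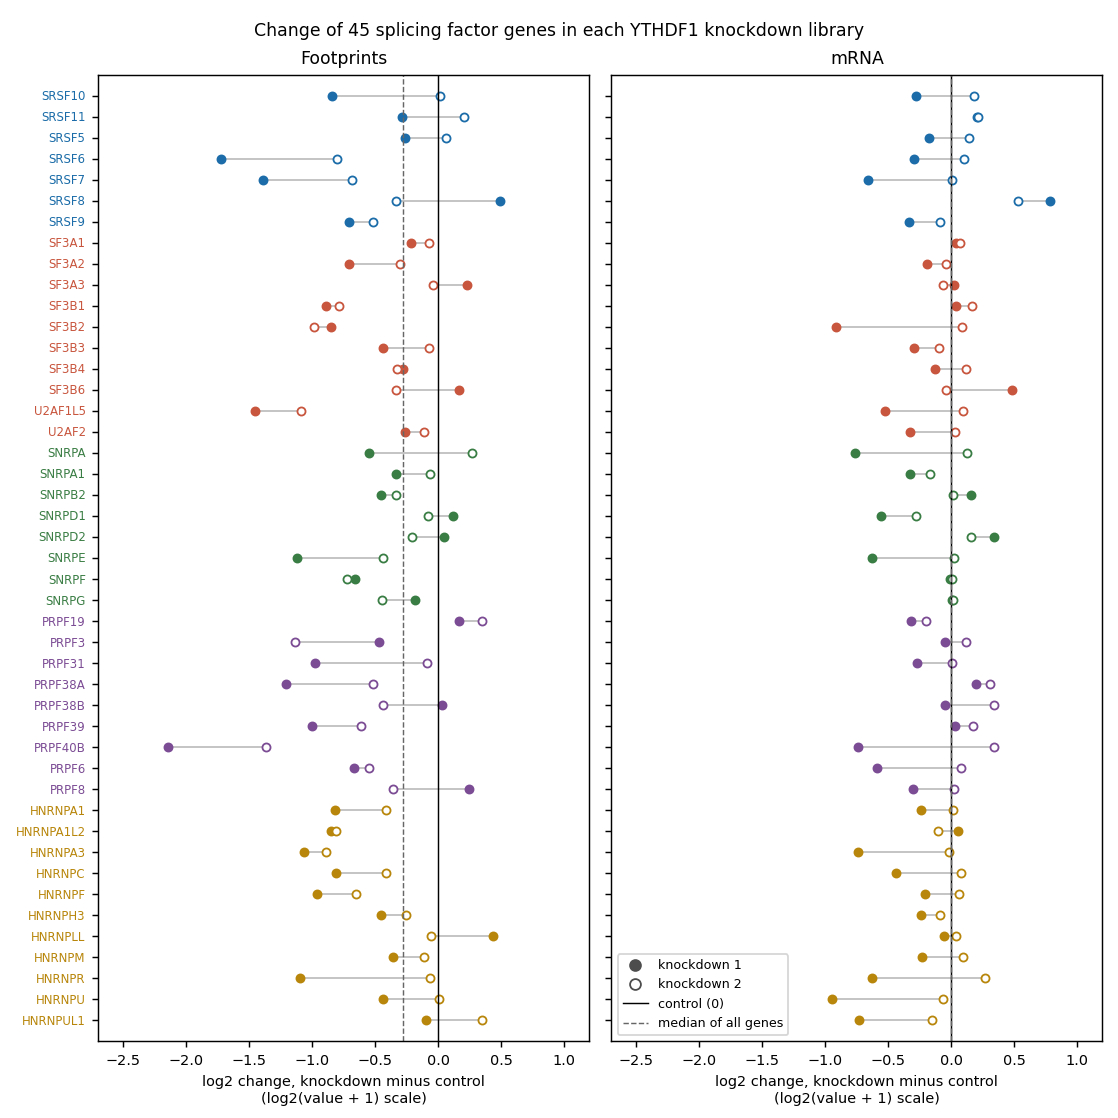
Log2 change against the control, on the log2(value + 1) scale, of 45 splicing factor genes in knockdown 1 (filled) and knockdown 2 (open), for footprints and mRNA, with the median of all genes as a dashed line. Most footprint points lie left of 0 in both libraries, while mRNA points of knockdown 1 lie left of those of knockdown 2 for 39 of the genes drawn.

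The SR protein genes were divided. SRSF6 (chromosome 20, 43457896 to 43464243 in GRCh38) had footprints of 36.2 in knockdown 1 and 69.5 in knockdown 2, against 122 in the control. Both knockdown libraries were below the control, and they also differed from each other. Its log2 change was -1.27 ± 0.45 (SE), with limma adjusted p = 0.552 and unadjusted p = 0.0285. SRSF7 (chromosome 2, 38743599 to 38751494) had 172 and 282 in the knockdown libraries and 453 in the control, a change of -1.04 ± 0.44 with limma adjusted p = 0.566. SRSF9, which also acts as an alternative splicing repressor, had 509 and 581 in the knockdown libraries and 835 in the control. These 3 were the SR genes with both libraries below the control.

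In the remaining SR genes the control lay between the knockdown libraries. SRSF5 had 456 and 574 in knockdown 1 and 2 and 549 in the control. SRSF10, whose dephosphorylated form represses splicing, had 81.1 and 147 in the knockdown libraries and 146 in the control. SRSF11 had 130 and 183 in the knockdown libraries and 159 in the control. In each of these 3 genes knockdown 1 was below the control and knockdown 2 above it. SRSF8 had the opposite order, with 7.03 in knockdown 1, 3.53 in knockdown 2 and 4.72 in the control.

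Among SF3 and U2AF genes both libraries were below the control in 8 of 10, against 51.2% of all genes. Relative to the library medians 3 of the 10 were below in both and 2 above in both. Of all genes 32.5% lay on each side, so the count of 8 includes the general shift. SF3B1 (chromosome 2, 197389784 to 197435093), whose protein clamps the branch site and is often mutated in myelodysplasia, had 371 and 398 in knockdown footprints and 689 in the control. The knockdown libraries were close together and well below the control. The knockdown mean was 384 ± 19.2 (SD, n = 2), and the log2 change was -0.84 ± 0.28 (SE) with limma adjusted p = 0.552 and unadjusted p = 0.0226. SF3B2 had 226 and 206 in the knockdown libraries and 409 in the control. The other subunits were nearer to the control. SF3A1 had 216 and 239 in the knockdown libraries and 251 in the control, a change of -0.14 ± 0.29.

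SF3A3, which lies with SF3A1 in the same trimer, had 419 and 347 in knockdown 1 and 2 and 358 in the control. SF3B6, whose protein contacts the branch-point adenosine, had 540 and 382 in the knockdown libraries and 483 in the control. In both genes the control lay between the knockdown libraries. U2AF2, which binds the polypyrimidine tract, had 302 and 337 in the knockdown libraries and 364 in the control, a change of -0.19 ± 0.30. The signs for SF3A1 and U2AF2 turned positive with median centring (0.15 and 0.10) and with quantile normalisation (0.05 and 0.02), so their direction rests on the scaling. SF3A2 had 171 and 227 in the knockdown libraries and 279.6 in the control. SF3B3 had 127 and 163 against 172 in the control, and SF3B4, which helps to anchor the U2 snRNP, had 123 and 119 against 149 in the control. In these 3 subunits both knockdown values were below the control.

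Footprints of some Sm genes were below the control in both libraries, while those of others lay around it. SNRPF (chromosome 12, 95858952 to 95866140) had footprints of 823 and 788 in the knockdown libraries and 1303 in the control, a change of -0.69 ± 0.28 with limma adjusted p = 0.558. SNRPE had 316 and 509 in the knockdown libraries and 689 in the control. SNRPG had 576 and 479 in the knockdown libraries and 655 in the control. All 3 had both libraries below the control.

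SNRPD1 and SNRPD2 lay around their controls. SNRPD1 had footprints of 1622 and 1418 in knockdown 1 and 2 and 1498 in the control, a change of 0.02 ± 0.29 that was -0.08 without knockdown 1. SNRPD2 had 1180 and 985 in the knockdown libraries and 1141 in the control. Both control values lay between the knockdown values. Whether the Sm genes differ from each other in their change was not tested. Of the snRNP proteins outside the ring, SNRPA had 186 and 328 in the knockdown libraries and 272 in the control. SNRPA1 had 178 and 215 in the knockdown libraries and 225 in the control, and its U2 partner SNRPB2 had 163 and 177 against 223 in the control. The control of SNRPA lay between the knockdown libraries, and those of SNRPA1 and SNRPB2 lay above them.

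Of the PRPF genes 7 of 10 had both footprint libraries below the control, against 51.2% of all genes. Relative to the library medians 5 were below in both and 1 above in both, where 32.5% of all genes lay on each side. PRPF40B (chromosome 12, 49622646 to 49644665), a U1-associated protein, had 2.83 and 5.55 in the knockdown libraries and 15.9 in the control. Its change, -1.76 ± 0.66 with limma adjusted p = 0.552, had the largest size of the 46, and it was -1.87 with a pseudocount of 0.5 and -1.20 with one of 5. PRPF38A, which takes part in spliceosome activation, had 26.2 and 42.7 in the knockdown libraries and 61.7 in the control. PRPF39 had 43.0 and 56.8 in the knockdown libraries and 87.3 in the control. In these 3 genes both libraries were below the control. Among the proteins of the tri-snRNP, PRPF3 had 21.7 and 13.3 in the knockdown libraries and 30.4 in the control, PRPF6 had 31.4 and 34.1 against 50.4 in the control, and PRPF31 had 19.9 and 37.8 against 40.3 in the control. In these 3 genes both libraries were again below the control. PRPF38B had 21.6 and 15.3 in the knockdown libraries and 21.1 in the control, which lay between them.

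PRPF19, the ubiquitin ligase of the complex that stabilises the active spliceosome, was the 1 splicing factor with both libraries above the control. It had 263 and 300 in the knockdown libraries and 235 in the control, a change of 0.25 ± 0.29 with limma adjusted p = 0.768. PRPF8 (chromosome 17, 1650629 to 1684867), the scaffold of the catalytic core, had 221 in knockdown 1, 146 in knockdown 2 and 187 in the control. The control lay between the knockdown libraries. Its change of -0.06 ± 0.37 was 0.23 with median centring, 0.17 with quantile normalisation and 0.24 without knockdown 2.

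Of the hnRNP genes 8 of 11 had both footprint libraries below the control, against 51.2% of all genes. Relative to the library medians 5 were below in both and 2 above in both, where 32.5% of all genes lay on each side. The class had the largest library difference. Its median was -0.81 in knockdown 1 and -0.26 in knockdown 2, while all genes had -0.19 and -0.34. HNRNPA3, an RNA-packaging protein, had 115 and 131 in the knockdown libraries and 243 in the control, a change of -0.98 ± 0.39 with limma adjusted p = 0.557. HNRNPF, which binds guanosine tracts, had 388 and 482 in the knockdown libraries and 757 in the control, a change of -0.81 ± 0.31 with limma adjusted p = 0.552. In both genes the knockdown libraries were nearer to each other than to the control.

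HNRNPA1 (chromosome 12, 54280726 to 54287087), an abundant binder of splicing silencers, had 774 and 1029 in the knockdown libraries and 1371 in the control. HNRNPC had 345 and 454 in the knockdown libraries and 605 in the control. Their changes were -0.62 ± 0.32 and -0.61 ± 0.35. HNRNPR had 244 in knockdown 1, 499 in knockdown 2 and 523 in the control, so that its change rested on knockdown 1. HNRNPUL1 had 136 and 185 in the knockdown libraries and 146 in the control, which lay between them. HNRNPH3, a relative of HNRNPF, had 229.7 and 263 in the knockdown libraries and 315 in the control, and HNRNPM had 564 and 667 against 723 in the control. HNRNPU had 512 and 694 in the knockdown libraries and 692 in the control. HNRNPLL had 32.0 and 22.4 in the knockdown libraries and 23.4 in the control. Of these 4 genes HNRNPH3 and HNRNPM had both libraries below the control.

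The median mRNA of splicing factors was lower than the control in knockdown 1 and nearly level with it in knockdown 2. The median change was -0.24 in knockdown 1 and 0.03 in knockdown 2, with -0.12 for both together. Relative to the library medians it was -0.21 in knockdown 1 and 0.01 in knockdown 2. Both libraries were below the control in 11 genes (23.9%; 29.9% of all genes) and above it in 9 genes (19.6%; 30.9% of all genes). In 26 of the 46 genes the libraries lay on opposite sides, against 2661 of all 6782 genes tested. Relative to the library medians, 16 genes (34.8%) were below in both libraries and 7 (15.2%) above in both, where 30.6% of all genes lay on each side. In limma no splicing factor, and none of all genes (0.00%), passed an adjusted p of 0.05, and no splicing factor had an unadjusted p under 0.05, against 0.472% of all genes (0.295% lower and 0.177% higher).

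By class, the hnRNP genes had 4 with both libraries below the control and 0 above, and the SNRP genes had 2 below and 3 above. The SR protein genes had 1 and 2, and the SF3 and U2AF genes and the PRPF genes 2 and 2 each. Of all genes 29.9% were below and 30.9% above. Relative to the library medians hnRNP genes had 5 below in both and 0 above, and SNRP genes 3 and 1. PRPF genes had 4 and 2, and the other 2 classes 2 and 2 each, where 30.6% of all genes lay on each side. SNRPD1 mRNA was 146 and 179 in the knockdown libraries and 217 in the control, a change of -0.42 ± 0.29. HNRNPUL1 had 92.6 and 139 in the knockdown libraries and 154 in the control. In both genes both knockdown values were below the control. On the other side, SNRPD2 had 126 and 111 in the knockdown libraries and 99.3 in the control, and SRSF8 had 37.6 and 31.3 in the knockdown libraries and 21.4 in the control. SNRPF was nearly level, at 90.4 and 91.5 in the knockdown libraries and 91.0 in the control, although its footprints were lower.

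Translation efficiency after knockdown was below the control in both libraries for 32 of 46 genes (69.6%; 52.0% of all genes), and above it in both for 7 genes (15.2%; 18.7% of all genes). The median change was -0.31 in knockdown 1 and -0.37 in knockdown 2, against -0.18 and -0.36 for all genes. Relative to the library medians, 19 genes (41.3%) were below in both libraries and 13 (28.3%) above in both, where 33.9% of all genes lay on each side. In limma no splicing factor and no other gene (0.00%) passed an adjusted p of 0.05, and 0 splicing factors had an unadjusted p under 0.05, against 2.73% of all genes (2.14% lower and 0.590% higher).

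All 7 SR protein genes had a lower efficiency in both knockdown libraries than in the control, as had 52.0% of all genes. Relative to the library medians 4 of the 7 were below in both libraries and 1 above in both, so that the count of 7 includes the general shift. SRSF6 had the largest size in the class, at -1.17 ± 0.64. The other classes had 5 to 8 genes below the control in both libraries. They were 6 of 10 SF3 and U2AF genes, 5 of 8 SNRP genes, 6 of 10 PRPF genes and 8 of 11 hnRNP genes. Relative to the library medians 2, 4, 4 and 5 genes were below in both, in the same order of classes. Above in both were 3, 3, 2 and 4, where 33.9% of all genes lay on each side.

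SF3B1 had the smallest unadjusted p of the 46. Its efficiency was 1.63 in knockdown 1, 1.61 in knockdown 2 and 2.56 in the control, a change of -0.95 ± 0.40 with limma adjusted p = 0.996 and unadjusted p = 0.0529. Its mRNA was 119 and 130 in the knockdown libraries and 116 in the control, slightly above the control while its footprints were below. PRPF40B had a change of -1.56 ± 0.93 and PRPF38A one of -1.11 ± 0.61.

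The 7 genes with a higher efficiency in both knockdown libraries included SF3A3, SNRPA, SNRPD1, PRPF19, HNRNPU and HNRNPUL1. SNRPA encodes the U1 snRNP protein that binds a stem-loop of U1 RNA. PRPF19 had 0.70 in knockdown 1, 0.78 in knockdown 2 and 0.23 in the control, a change of 0.51 ± 0.41. HNRNPUL1 had 0.55 in knockdown 1, 0.41 in knockdown 2 and -0.09 in the control, a change of 0.56 ± 0.54. SNRPD1 had a change of 0.44 ± 0.42. For HNRNPU the change of 0.29 ± 0.61 was -0.15 without mRNA knockdown library 1, in which its mRNA value was lowest.

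A further 79 splicing genes outside these prefixes were tested, out of 127 listed, among them helicases, kinases of SR proteins and LSM proteins. Both footprint libraries were below the control in 53 of them (67.1%) and above it in 7 (8.86%), where the 46 had 67.4% and 2.17%. Their mRNA was above the control in both libraries in 28 (35.4%; 30.9% of all genes) and below it in 13 (16.5%; 29.9% of all genes). Their efficiency was below the control in both libraries in 57 (72.2%) and above in 7. No gene of this list passed an adjusted p of 0.05 in limma, and 7 had an unadjusted p under 0.05 for footprints, all lower (8.86%, against 8.85% of all genes in either direction).

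m6A-seq enriches RNA fragments with an antibody to m6A, and the authors listed windows whose signal over input was at least 3 in each replicate. A peak stood in both replicate lists for 25 of 46 genes (54.3%), and for 72.5% of all genes. In at least 1 list there were 34 genes (73.9%; 83.3% of all genes). The lists are the authors' calls, and the difference in share was not tested.

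The classes differed in this share. A peak in both replicates was listed for 8 of 10 PRPF genes, 7 of 11 hnRNP genes, 6 of 10 SF3 and U2AF genes, 2 of 7 SR protein genes and 2 of 8 SNRP genes. The 12 genes in neither list included SRSF5, SF3B3, SF3B6, U2AF2, SNRPB2, SNRPD1, SNRPE, SNRPF, SNRPG, HNRNPA1L2 and HNRNPC. Among them are 4 of the Sm proteins. Of the further splicing genes 55 of 79 (69.6%) had a peak in both replicates.

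**Figure D3:**
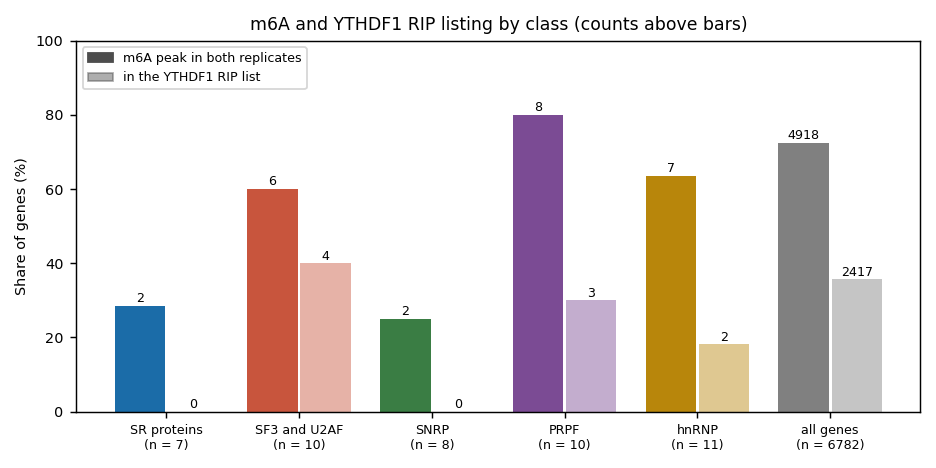
Share of genes, in percent on the vertical axis, with an m6A peak in both replicate lists and share in the YTHDF1 RIP list, for each class of splicing factor and all genes tested. The share with m6A ranges from 25.0% of SNRP genes to 80.0% of PRPF genes, against 72.5% of all genes.

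The 46 genes held 76 peaks in replicate 1 and 70 in replicate 2, or 2.53 and 2.41 per listed gene, against 2.89 and 2.87 over all listed genes of the table. The median ratio of peak over input was 5.93 and 5.91, against 5.63 and 5.48 for all genes. Of the peaks in replicate 1, 60 of 76 (78.9%) overlapped a peak of the same gene in replicate 2 by at least 1 base. Of those in replicate 2, 56 of 70 (80.0%) overlapped one in replicate 1. Over all genes these shares were 75.4% and 73.8%, so the overlap in splicing factors was near that of the table. The same adenosine was named in both lists at 48 sites, of which 25 also carried an identical input value. Windows with the same bounds but differently named sites also had the same input, such as 838 for SF3B1 from 375 to 800. The replicate lists thus share input data beyond these sites, and their overlap is not that of independent replicates.

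**Figure D4:**
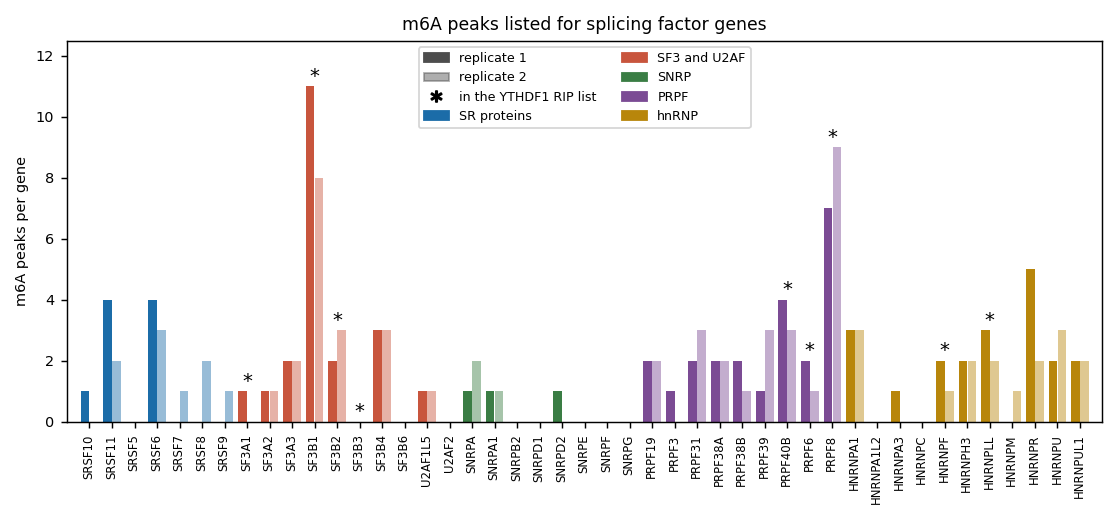
Number of m6A peaks listed for 45 splicing factor genes in replicate 1 and replicate 2, grouped by class, with a star over genes in the RIP list. SF3B1 and PRPF8 have the most, with 11 and 8 peaks and with 7 and 9 peaks in the 2 replicates.

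SF3B1 and PRPF8 held the most peaks, with 11 and 8 for SF3B1 in replicates 1 and 2 and 7 and 9 for PRPF8. SRSF6 and PRPF40B followed with 4 and 3 each, and HNRNPR had 5 and 2. The sites named in both replicates of these genes show which sequence the authors assigned to each peak. All of these sites with GGAC, and for each gene the site with its highest ratio in either replicate, are printed here. The capitals mark the A that the lists assign to the window and the C after it. Positions count along a transcript that the deposited lists do not name.
SF3B1 at position 2196: ggACc
SF3B1 at position 2614: aaACa
PRPF8 at position 1370: gaACc
PRPF8 at position 1726: ggACt
PRPF8 at position 3268: ggACc
PRPF8 at position 5272: ggACt
SRSF6 at position 102: ggACa
PRPF40B at position 971: ggACa
PRPF40B at position 2571: aaACt
HNRNPR at position 469: ggACc
HNRNPR at position 1726: ggACc

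In SF3B1 the site at position 2614 had the highest ratio of those named in both lists, 12.6 in replicate 1 and 16.03 in replicate 2, and its letters are not of the GGAC type. That A lies just before its window, which runs from 2625 to 2800 in replicate 1. Over both lists the named A fell inside its window in 120 of 146 peaks (82.2%), against 81.1% over all genes. The GGAC site at 2196 had 4.27 and 4.12. A broad window of the same gene from 375 to 800 had 14.97 and 13.1. In PRPF8 the ratio at position 1370 was 24.9 and 25.4, and its input value of 12.7 was the same in both lists. The 3 PRPF8 sites with GGAC had ratios between 4.46 and 7.53. Among sites named in both lists, the highest ratio thus stood at a site without GGAC in both genes.

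HNRNPR had the highest ratio of all 146 peaks. It was 58.3 in replicate 1 and 44.8 in replicate 2 for windows assigned to the A at position 1726, over an input of 3.88 and 37.97. The first ratio rests on a low input, and its window, from 1600 to 1675, does not hold that A. The window of replicate 2 runs from 1575 to 1875 and holds it, so that the ratios stand for windows of different width. In SRSF6 the site at 102 had 14.0 and 8.32, and in PRPF40B the site at 2571 had 11.5 and 8.003. The 5 letters GGAC followed by any base, searched on the transcript strand as the lists give it, were named in 17 of 76 peaks (22.4%) in replicate 1 and 20 of 70 (28.6%) in replicate 2. Over all genes of the table the shares were 30.7% and 29.5%.

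**Figure D5:**
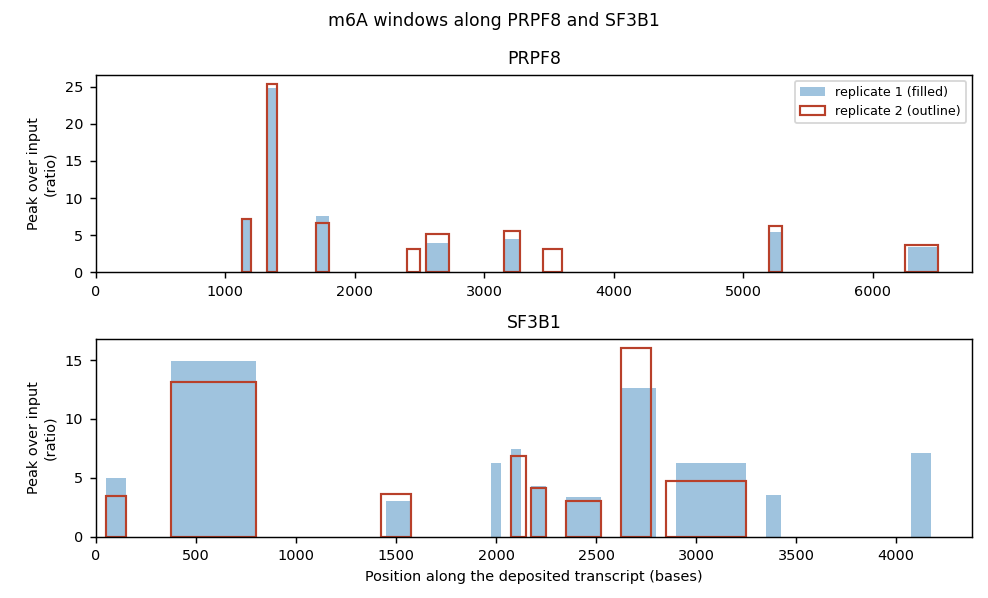
m6A windows along PRPF8 and SF3B1, with position along the deposited transcript in bases on the horizontal axis and the authors' ratio of peak over input on the vertical axis, for replicate 1 (filled) and replicate 2 (outline). Most windows recur in both replicates, and the highest in PRPF8 reaches 24.9 and 25.4.

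The RIP asked which mRNAs are bound by YTHDF1. The authors' deposited table lists genes with a ratio of RIP over input FPKM of at least 1.5, from 1 library each, so that no test is possible. Of the splicing factors 9 of 46 (19.6%) were listed, against 35.6% of all genes tested. They were 4 SF3 genes, 3 PRPF genes and 2 hnRNP genes, with no SR protein gene and no SNRP gene. Of the further splicing genes 26 of 79 (32.9%) were listed.

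In the authors' deposited table PRPF8 had 173 FPKM in RIP and 31.9 FPKM in input, a ratio of 5.42 at percentile 95.9 of the list. SF3B3, a scaffold subunit of the U2 snRNP, had 36.2 FPKM in RIP and 12.1 in input, a ratio of 2.98. PRPF6, which bridges the tri-snRNP, had 158 and 68.0 FPKM, a ratio of 2.33. These 3 lay above the list median of 2.28.

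The remaining 6 ratios in the authors' deposited table lay below it, at 2.12 for PRPF40B, 2.00 for HNRNPF, 1.93 for SF3B1, 1.90 for SF3A1, 1.74 for HNRNPLL and 1.52 for SF3B2. HNRNPLL is known for splicing of the CD45 transcript in lymphocytes. At a ratio of at least 2 there were 4 splicing factors (8.70%), against 22.6% of all genes. A gene missing from the list may have had a ratio under 1.5 or an input under 1 FPKM, or be absent for another reason. Which of these applied is not recorded.

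Both marks, a RIP listing and an m6A peak in both replicates, were held by 7 of 46 genes (15.2%; 31.8% of all genes). These were 77.8% of the listed splicing factors, against 89.2% of all listed genes. SF3A1 had a peak in 1 replicate, with a ratio of 3.69, and SF3B3 had none. Of the 25 genes with m6A in both replicates, 18 were not in the RIP list, SRSF6, HNRNPA1 and HNRNPR among them.

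The changes after knockdown were also grouped by these marks, as a description without a test. The median footprint change was -0.50 in the 25 genes with m6A in both replicates and -0.32 in the other 21, against -0.29 and -0.25 for all genes split the same way. By library it was -0.67 with m6A and -0.44 without in knockdown 1, but -0.32 with and -0.34 without in knockdown 2, so that the gap came from knockdown 1. The median efficiency change was -0.21 with m6A and -0.32 without in knockdown 1, and -0.38 with and -0.37 without in knockdown 2. Over all genes it was -0.16 with and -0.21 without in knockdown 1, and -0.38 with and -0.30 without in knockdown 2. For the 9 genes in the RIP list the median footprint change was -0.61, and for the other 37 it was -0.35. By library it was -0.67 and -0.45 in knockdown 1 and -0.55 and -0.33 in knockdown 2, lower in the listed genes each time. The order of the efficiency medians differed between the libraries. The median change was -0.14 for the listed genes and -0.33 for the others in knockdown 1, and -0.63 for the listed genes and -0.35 for the others in knockdown 2. Over all genes the RIP split gave -0.31 and -0.27 for footprints. For efficiency it gave -0.15 and -0.19 in knockdown 1, and -0.45 and -0.32 in knockdown 2. The order of the efficiency medians within each library was thus the same over all genes as in the splicing factors.

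Of the 6 splicing factors with an unadjusted footprint p under 0.05, SF3B1, PRPF40B and HNRNPF were in the RIP list and had m6A in both replicates. SRSF6 had m6A in both replicates without a RIP listing. HNRNPA3 had a peak in 1 replicate and SNRPF in none. These groups are small and were not tested against each other.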

How the data were processed

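Ribosome footprints and mRNA are given in an expression table as 1 signal value per gene and library. The authors deposited this signal without a named unit or normalization in the file headers. STAR and GRCh38 are named in the submitters' processing notes (STAR version: not given in the sources used here, and no counter is named). The RIP list holds FPKM values of RIP and input and their ratio as deposited by the authors, and lists genes with a ratio of at least 1.5 and an input of at least 1. For m6A the authors deposited 1 list per replicate, with immunoprecipitate and input signal, their ratio, which is at least 3, and positions along a transcript (caller: not given in the sources used here).

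No whole-read steps were found in the table, so its depth, and the depth behind the RIP and m6A values, is unknown. Every control value is at least 0.5, which shows that the table was filtered on the control. Genes low only in the control are thus absent, which can raise counts below the control among members and all genes. The 12 names damaged by a spreadsheet were left out. Values were transformed to log2(value + 1), a scale that understates the changes of low genes, and 6782 genes with a mean of at least 1 were tested with limma 3.58.1 in R 4.3.3, after the script was checked on simulated data. The model has 1 mean per assay and condition and 2 residual degrees of freedom, and assumes that the lone control varies as the pairs of knockdown libraries do. The p-values are 2-sided and adjusted by Benjamini-Hochberg over all genes tested, at a threshold of 0.05. Lists are described by counts and medians, with no test of the list.

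The members and lists were chosen with earlier results of these data known. The rule for named genes took the 4 largest changes in each direction per contrast among genes whose knockdown libraries both lay on the same side of the control, the 4 highest and lowest control efficiencies, the 5 genes with the most m6A peaks, the 5 highest RIP ratios and a fixed set. Of that set SRSF1, SRSF2, SRSF3, U2AF1, SNRPB, SNRPN, HNRNPA2B1 and HNRNPK were not analysed here for expression. The values of 1 member are not reported here, though counts and medians include it. Other members named were chosen after their values were seen. Coordinates are from RefSeq on GRCh38, in which 45 of 46 symbols were found. The alternatives were other pseudocounts, filters and scalings, single libraries left out, each assay fitted alone, a replicate block, and stricter peak and RIP ratios.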

Additional observations from a re-analysis of the deposited data

How the results depend on the processing

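No splicing factor passed an adjusted p of 0.05 in limma under any of the settings run, and the lowest was 0.0820 for SRSF6 footprints without footprint knockdown library 2. The 2 genes called for footprints over the whole table became 0 with a pseudocount of 0.5, without the filter, with median centring and with quantile normalisation, and 2 to 80 with 1 library left out. For mRNA and for efficiency the 0 genes became 0 to 1 with 1 library left out. The median footprint change of splicing factors, -0.37, was -0.085 with median centring and -0.16 with quantile normalisation, and -0.46 to -0.34 with 1 library left out. The median efficiency change, -0.36, was -0.078 and -0.15 under the same scalings, and -0.46 to -0.18 with 1 library left out. The median mRNA change of -0.12 was 0.03 without mRNA knockdown library 1 and -0.24 without library 2. With median centring, chosen after seeing the data, 18 genes had footprints and 18 had efficiency lower in both knockdown libraries. The 6 splicing factors with an unadjusted footprint p under 0.05 became 0 with median centring, 0 with quantile normalisation, and 1 to 10 with 1 library left out.

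The median control efficiency of splicing factors lay 0.27 above that of all genes. This was 0.22 with a pseudocount of 0.5, 0.44 with one of 5, 0.21 in knockdown 1, 0.21 in knockdown 2 and 0.33 without the 3 genes that have near-identical copies. The share with m6A in both replicates, 54.3%, was 63.0% to 65.2% with 1 replicate alone and 41.3% at a ratio of at least 5, below the share of all genes each time. The RIP share of 19.6% was 8.70% at a ratio of at least 2. For named genes the agreement between settings was partly fixed in advance. Genes ranked for a change were chosen with both knockdown libraries on the same side of the control. Several settings also leave a given change as it was, and no splicing factor passed the threshold in any. Of 360 alternative values for named genes 351 kept their direction and side of the threshold. Those that reversed were HNRNPU efficiency (-0.15 to 0.73 with 1 library left out), SNRPD1 footprints (-0.079 to 0.11), PRPF8 footprints (-0.36 to 0.24, and 0.23 and 0.17), SF3A1 footprints (0.15 and 0.046) and U2AF2 footprints (0.10 and 0.018), the pairs joined by "and" being median centring and quantile normalisation. The causes were not tested.

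A fit with a replicate block by library number gave 30 genes that passed for footprints, 2 for mRNA and 6 for efficiency, and 15 splicing factors had an unadjusted footprint p under 0.05. The deviations of same-numbered libraries correlated at 0.37 over 6782 genes, but the labels do not say that the numbers pair cultures. With 1 control library per assay and unknown depth, changes of the sizes seen here could not be told from the spread between libraries.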

Other observations

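Genes with the same prefixes also appear in the m6A and RIP lists without expression values here. There were 15 of them in both m6A lists. U2AF1, the subunit of U2AF that reads the end of the intron, had 2 peaks in each replicate with a highest ratio of 26.2 and 32.3. SNRPD3, an Sm protein, had 1 peak in each with ratios of 18.9 and 18.1, while its ring partners SNRPD1, SNRPE, SNRPF and SNRPG were in neither list and SNRPD2 was in that of replicate 1, with a ratio of 5.65. SRSF1 and SRSF2 had 2 peaks in each replicate, with highest ratios of 4.15 and 4.18 for SRSF1 and 7.90 and 7.56 for SRSF2. HNRNPK had 3 peaks in each. In the authors' deposited table PRPF4, a protein of the U4/U6 snRNP, had a RIP ratio of 2.46.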
